A study of Mus musculus with 9 samples.

Results

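The transcription factor genes of the myeloid lineage described here are *Spi1*, *Cebpa*, *Cebpb*, *Maf*, *Klf2*, *Klf4*, *Runx1*, *Mef2a* and *Mef2c*. They were taken as a list of 9 named genes out of the 53801 in the count data, and all 9 were found by their Ensembl identifiers and passed the filter on low counts in every comparison. RNA-seq was performed on monocytes/macrophages of male C57BL/6J mice aged 9 weeks, sorted as CD11c-, Ly6G-, CD11b+ and CD45high. Blood of sham-operated mice (sham blood) and of stroke mice (stroke blood) had 3 libraries each, every library from 1 mouse, and stroke brain had 3 libraries, every library from the ischemic hemispheres of 5 pooled mice. Stroke was induced by permanent distal middle cerebral artery occlusion (dMCAO), and stroke blood and brain were collected 5 days later, whereas the day of sham blood collection is not given in the sources used here. No group of brain cells from sham mice was analysed, so brain and blood differ in tissue, in pooling and in cell preparation, and only the brain was dissociated with enzymes in a heated device.

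These factors act in layers. PU.1, encoded by *Spi1*, is an ETS factor that opens myeloid enhancers, and RUNX1 acts with it early in blood cell formation. C/EBPα sets the granulocyte and monocyte fate in progenitors, while C/EBPβ is inducible and takes part in emergency myelopoiesis and in inflammatory gene expression of mature cells. c-MAF belongs to resident, self-maintaining macrophages, KLF2 holds myeloid cells in a quiescent state, KLF4 is required for inflammatory monocytes, and the MEF2 proteins are activated by ERK5 and p38 kinases and are prominent in microglia.

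The genes called between brain and stroke blood, *Cebpb* and *Klf2*, are shown with the DNA just before their first annotated exon. In these stretches of GRCm38.p6, taken from RefSeq and read on the plus strand, capitals mark TGACG, the half-site of the cAMP response element, in *Cebpb* (chr2:167688795-167688914) and CTANNNNTAG, the core of a MEF2 site, in *Klf2* (chr8:72318913-72319032).
Cebpb: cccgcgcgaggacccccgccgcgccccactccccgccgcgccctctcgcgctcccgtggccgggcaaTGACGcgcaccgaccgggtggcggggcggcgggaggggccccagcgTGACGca
Klf2: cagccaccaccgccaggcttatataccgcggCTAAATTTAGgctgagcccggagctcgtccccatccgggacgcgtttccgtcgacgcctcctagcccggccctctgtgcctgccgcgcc

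The search covered windows from 250 bases before to 50 bases after RefSeq starts, on both strands, and 7 of the 9 genes had such a window. The *Cebpb* window held 3 TGACG matches, 2 of them within the printed stretch, and 20.8% of all 32851 windows held at least 1, those of *Klf2* and *Klf4* among them. In *Klf2*, CTANNNNTAG lay at -118 to -109 from the RefSeq start, and 3.69% of all windows held this motif. The *Mef2a* window also held this motif, at -2 to 7 from its start, and none of the 3 *Mef2c* windows did. None of the windows of these genes held AGGAAGT (a PU.1 site, in 9.35% of all windows), TTGCNNAA (C/EBP, 10.8%) or CCACACCC (KLF, 3.56%), while TGTGGT (RUNX, 16.8%) lay after a start of *Runx1* and TGCTGA (a MAF half-site, 19.5%) before a start of *Mef2c*. No match overlapped that of another motif. A match describes letters only and is not evidence of binding.

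Total counts ranged from 18475118 to 22623578 per library, and the smallest count of any of the 9 genes in any library was 161, for *Maf* in sham blood replicate 3. Levels are given as counts per 1000000 (CPM) after TMM scaling, and differences as edgeR log2 fold changes with Benjamini-Hochberg adjusted p over all genes tested. Calls needed an adjusted p below 0.05 together with a log2 fold change beyond 1 in either direction. Libraries were not equally alike: the root mean square difference in log2 CPM was 0.850 and 0.852 from brain replicate 1 to the other brain libraries, against 0.657 between those, and 0.851 and 0.895 from sham blood replicate 1 to the other sham libraries, against 0.601. Brain replicate 1 was the highest brain library for *Cebpa*, *Klf2*, *Klf4* and *Runx1* and the lowest for *Spi1*, *Cebpb*, *Maf* and *Mef2c*. Stroke blood replicate 3 was the highest stroke blood library for 8 of the 9 genes. For the genes named with a fold change between brain and stroke blood, the value without a library is given where leaving it out ended the call or moved the fold change by over 1.5 times. For genes other than the 9, these fits were chosen after the data were seen.

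Markers of other cell types also differed between the groups. All 9 microglia markers were called higher in the brain than in stroke blood, and their summed level was 1394, 2088 and 4001 CPM in brain replicates 1, 2 and 3, against 149 to 206 CPM in stroke blood and 159 to 209 CPM in sham blood. *Sall1*, a defining microglial factor, had no count in any blood library. Of the neutrophil markers, 7 of 8 tested were called higher in the brain than in stroke blood and 4 of 9 tested than in sham blood. They summed to 776 to 1269 CPM in the brain, 48.7 to 318 CPM in stroke blood and 246 to 1738 CPM in sham blood, although *Ly6g* averaged 0.301 CPM in the brain. Of the dendritic cell markers, 5 of 6 were called higher in the brain than in stroke blood and 2 of 6 than in sham blood. They summed to 624 to 803 CPM in the brain, 98.6 to 224 CPM in stroke blood and 103 to 346 CPM in sham blood. *Itgax*, which encodes CD11c, was also called higher in the brain, at 94.5 CPM against 14.8 CPM in stroke blood. Of the 10 T and NK cell markers 2 were called higher in each brain contrast (705 to 1501 CPM in the brain, 331 to 1022 CPM in stroke blood and 291 to 734 CPM in sham blood). Of the 7 monocyte markers, 2 were called lower in each brain contrast, *Ly6c2* and the lysozyme gene *Lyz2*, which averaged 38101 CPM in the brain and 97844 CPM in stroke blood. None of 5 B cell markers tested was called between brain and stroke blood and 5 of 6 were called lower than in sham blood (44.8 to 88.0 CPM in the brain, 66.1 to 116 CPM in stroke blood and 130 to 242 CPM in sham blood, lowest in replicate 1). The gate genes *Itgam* and *Ptprc* were present in every group. Platelet markers, of which 6 of 7 were called lower in each brain contrast, summed to 35.0 to 79.1 CPM in the brain, 344 to 414 CPM in stroke blood and 18.5, 454 and 685 CPM in sham blood replicates 1 to 3. Erythroid markers summed to 3.80 to 13.7 CPM in the brain and 14102 to 20465 CPM in stroke blood, and in sham blood to 1250 CPM in replicate 1 against 33867 and 31096 CPM in replicates 2 and 3. The 15 immediate early and dissociation-responsive genes summed to 15447 to 17671 CPM in the brain, 4194 to 5772 CPM in stroke blood and 2820 to 6610 CPM in sham blood. The part of these shifts in the results below was not tested. In sorted bulk RNA, a change in the makeup of the cells and a change in RNA per cell cannot be told apart.

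Between the brain and stroke blood, the 2 of the 9 genes that were called moved in opposite directions. *Cebpb* rose 33.8-fold and *Klf2* fell 2.71-fold, whereas the pioneer factor gene *Spi1* kept a high level in all groups. Of the 9 genes, 2 were called, 1 in each direction, against 21.0% of the 13189 genes tested, of which 13.1% were called higher and 7.86% lower. The groups did not overlap for 5 of the 9 genes, against 48.2% of all genes tested. At the adjusted p alone 4 of the 9 genes passed, against 30.6%. The median log2 fold change was 0.20 over the 9 genes and 0.06 over all genes tested.

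**Figure D1:**
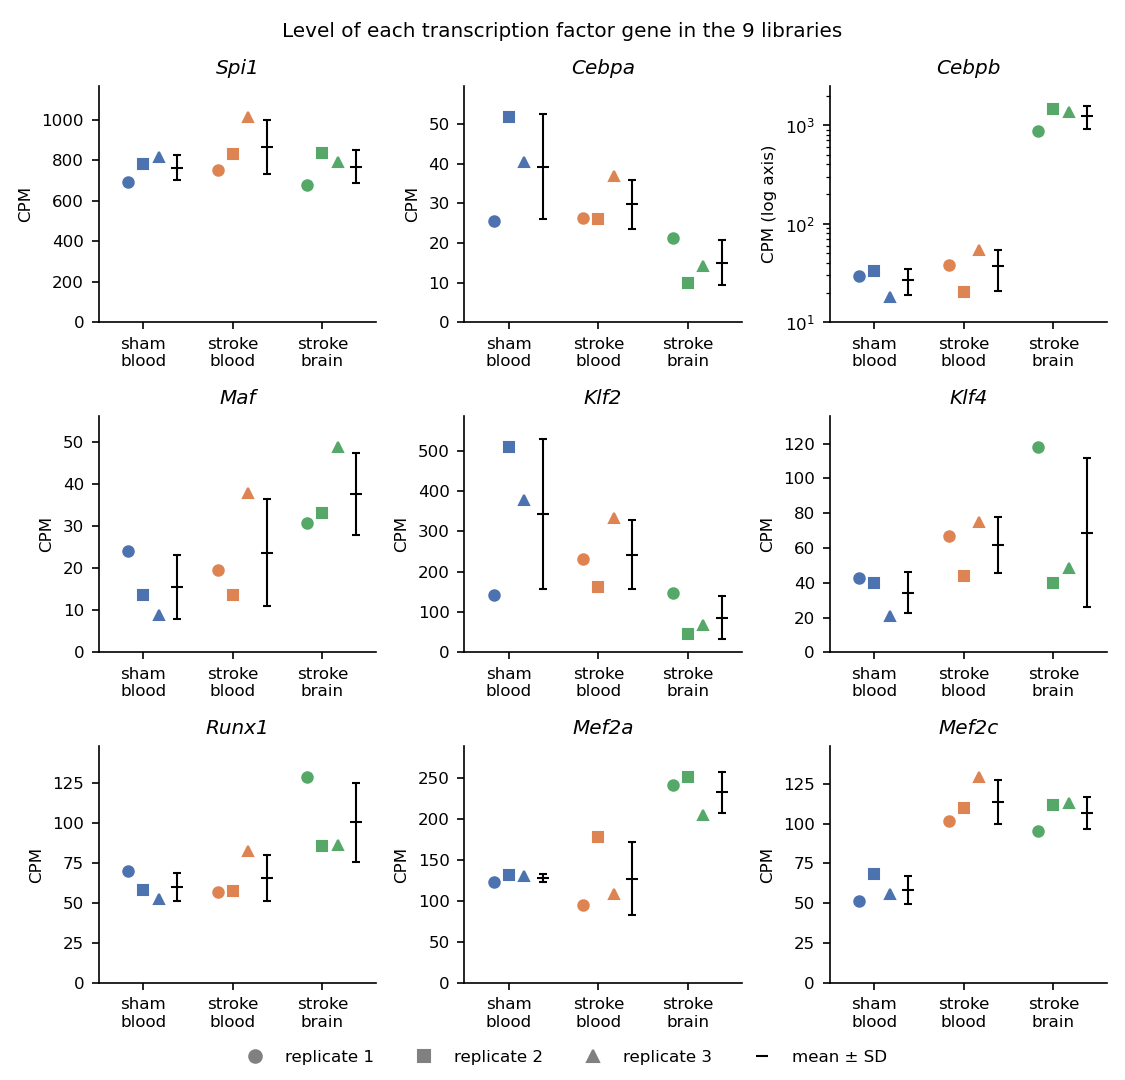
Level of each of the 9 genes in every library, in CPM after TMM scaling (log axis for *Cebpb* only), with the mean ± SD of the 3 libraries of each group as black bars. The brain libraries of *Cebpb* lie between 874 and 1461 CPM, all above the blood libraries, whose highest value is 54.4 CPM.

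*Cebpb* (ENSMUSG00000056501, GRCm38 chr2:167688915-167690418, plus strand, 1 exon) carried the largest difference of the 9 genes. It measured 29.6, 33.1 and 17.9 CPM in sham blood replicates 1 to 3, 38.1, 20.4 and 54.4 CPM in stroke blood and 874, 1461 and 1370 CPM in the brain. The blood groups overlapped, and every brain library lay far above every blood library. The log2 fold change was 5.08 (SE 0.37, adjusted p = 3.22e-05, edgeR) against stroke blood and 5.52 (SE 0.33, adjusted p = 0.00022) against sham blood, a 45.8-fold rise. Leaving out any library kept the call in 6 of 6 fits of each comparison, with log2 fold changes from 4.74 to 5.39 against stroke blood. Of its 1504 exonic bases, 312 overlap *Tmem189* on the opposite strand, and since the strand setting of the counting is not stated, these reads are uncertain. *Tmem189* itself measured 144 to 182 CPM in the brain and 50.0 to 62.9 CPM in stroke blood.

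*Cebpa* (ENSMUSG00000034957, chr7:35119293-35121928, plus strand, 1 exon), its paralog of progenitors, ran the other way. It measured 25.5, 51.8 and 40.3 CPM in sham blood, 26.3, 26.0 and 36.9 CPM in stroke blood and 21.1, 9.92 and 14.1 CPM in the brain. The brain libraries lay below all blood libraries, brain replicate 1 being closest to them. Against stroke blood the log2 fold change was -0.94 (SE 0.29, adjusted p = 0.0371), past the adjusted p but not the fold threshold, and against sham blood *Cebpa* was called, at -1.38 (SE 0.35, adjusted p = 0.0287). Without brain replicate 1 it was called against stroke blood too, at -1.27, whereas the call against sham blood was lost without sham blood replicate 2 or 3 or brain replicate 2 or 3 (log2 fold change -1.14 to -1.37). Its overlap with the antisense *Gm45091* spans 51 bases.

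Compared per length, as transcripts per 1000000 (TPM), *Cebpb* stood much further above *Cebpa* in the brain than in blood. The ratio of *Cebpb* to *Cebpa* within a library was 2.03, 1.12 and 0.779 in sham blood, 2.53, 1.38 and 2.59 in stroke blood and 72.5, 258 and 171 in the brain. Brain replicate 1 had the lowest of the brain ratios, which was still above every blood ratio. The ratios of pairs of genes were chosen after the values were seen and are given as a description.

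**Figure D2:**
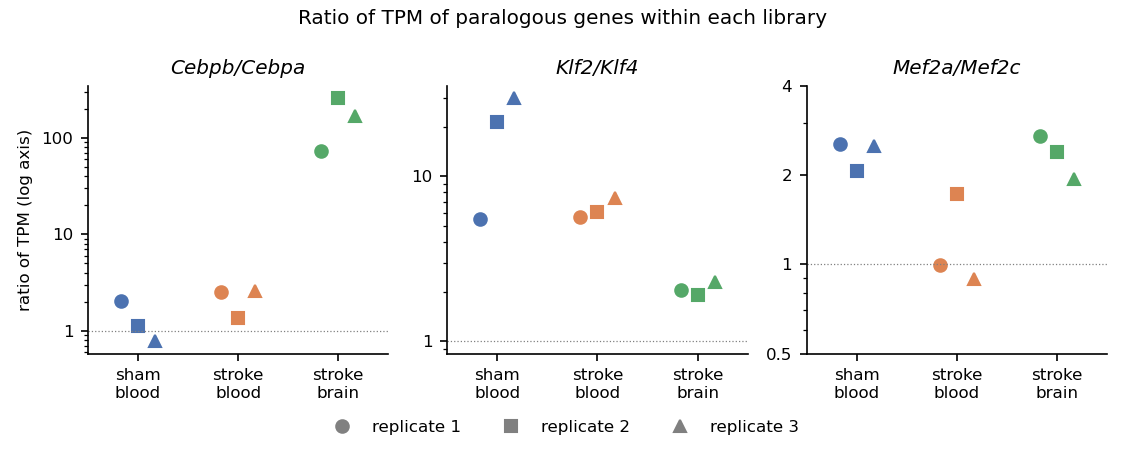
Ratio of TPM of paralogous genes within each library, on log axes, with symbols for the replicates and a dotted line at 1. The *Cebpb*/*Cebpa* ratio is at least 72.5 in the brain and at most 2.59 in blood, the *Klf2*/*Klf4* ratio is 1.91 to 2.28 in the brain, and the *Mef2a*/*Mef2c* ratio is lowest in stroke blood.

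The other C/EBP genes were read for comparison. Of 5 C/EBP family genes tested, 1 rose (*Cebpb*) and 1 fell in the brain against stroke blood. The gene that fell was *Cebpd*, an acute-phase factor, with 49.3 to 82.0 CPM in the brain against 153 to 220 CPM in stroke blood (log2 fold change -1.36, SE 0.22, adjusted p = 0.00202), without overlap. *Cebpe*, the factor of late granulocytes, averaged 3.72 CPM in the brain and 3.04 CPM in stroke blood (adjusted p = 0.659), and *Cebpg* 54.4 and 67.2 CPM (adjusted p = 0.199). The overlap of *Cebpd* with *Spidr* on the opposite strand, 562 bases, leaves its reads uncertain.

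Genes commonly cited as C/EBPβ targets included large rises. Of 7 tested, 4 were called higher in the brain than in stroke blood and none lower. *Arg1*, encoding arginase, measured 54.6 to 68.7 CPM in the brain and 0.190 to 0.778 CPM in stroke blood (log2 fold change 7.27, SE 0.41, and 8.03 without stroke blood replicate 3), and *Ptgs2*, encoding cyclooxygenase-2, 74.4 to 106 CPM and 0.611 to 0.898 CPM (6.96, SE 0.27). *Il1b* reached 1262 to 1563 CPM against 60.5 to 140 CPM (3.93, SE 0.30). The acute-phase targets *Lcn2* (adjusted p = 0.195) and *Saa3* (adjusted p = 0.201) did not pass, with log2 fold changes of 0.86 and -1.25. Against sham blood 4 of 7 tested were called higher and 1, *Saa3*, lower (log2 fold change -4.82, adjusted p = 0.048). *Saa3* measured 5.12, 38.5 and 322 CPM in sham blood and 1.07 to 6.72 CPM in the brain, with overlap. Of the 5 genes cited as C/EBPα targets, *Mpo* and *Elane*, which encode granule enzymes and are also among the neutrophil markers, rose. *Mpo* measured 144, 42.2 and 17.8 CPM in brain replicates 1 to 3 and at most 1.62 CPM in stroke blood (log2 fold change 6.41, and 5.22 without brain replicate 1 or 7.18 without stroke blood replicate 3). *Elane* measured 148, 10.5 and 16.8 CPM in the brain and at most 4.28 CPM in stroke blood (4.57, and 2.46 without brain replicate 1), so that brain replicate 1 stood far above the others, and its call was lost without stroke blood replicate 3 (adjusted p = 0.0544). *Prtn3*, another gene of this list, did not rise, averaging 26.0 CPM in the brain and 32.8 CPM in stroke blood (adjusted p = 0.677). *Csf3r*, the G-CSF receptor, averaged 242 CPM in the brain and 277 CPM in stroke blood (adjusted p = 0.568).

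*Klf2* (ENSMUSG00000055148, chr8:72319033-72321656, plus strand, 3 exon blocks) was the called gene that fell. It measured 143, 509 and 378 CPM in sham blood, 230, 162 and 334 CPM in stroke blood and 146, 46.4 and 66.7 CPM in the brain. The brain libraries lay below all stroke blood libraries, but brain replicate 1 was slightly above sham blood replicate 1. The log2 fold change was -1.44 (SE 0.41, adjusted p = 0.025) against stroke blood and -1.99 (SE 0.55, adjusted p = 0.0392) against sham blood. Against stroke blood the call was lost without stroke blood replicate 1 or 3 or brain replicate 2 or 3 (adjusted p 0.0618 to 0.101, log2 fold change -1.13 to -1.51), and without brain replicate 1 it was -2.06. Against sham blood it was lost without sham blood replicate 2 or 3 or brain replicate 2 or 3 (adjusted p 0.103 to 0.123), and the sign held in all of these fits. Without sham blood replicate 1, which was low in erythroid, platelet and B cell markers as well as in *Klf2*, it was -2.35 (adjusted p = 0.019), and without brain replicate 1 it was -2.61. A link of *Klf2* with these markers was not tested.

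*Klf4* (ENSMUSG00000003032, chr4:55527143-55532466, minus strand, 5 exon blocks) scattered more within the brain than in blood. It measured 42.5, 39.7 and 21.0 CPM in sham blood, 66.9, 44.0 and 74.7 CPM in stroke blood and 118, 40.2 and 48.4 CPM in the brain. Brain replicate 1 was the highest of all libraries, and the other brain libraries lay within or below the range of stroke blood. Against stroke blood its log2 fold change was 0.20 (95% interval -0.66 to 1.06, adjusted p = 0.727) and became -0.44 without brain replicate 1. Against sham blood it was 1.00 (95% interval -0.02 to 2.03, adjusted p = 0.155), and 0.36 without brain replicate 1.

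Within the brain, both KLF genes were highest in replicate 1 and lowest in replicate 2. The ratio of *Klf2* to *Klf4* in TPM was narrow there, at 2.04, 1.91 and 2.28, against 5.69, 6.09 and 7.37 in stroke blood and 5.54, 21.2 and 29.7 in sham blood. Sham blood replicate 1, which had few erythroid counts, held the low ratio of its group. This ratio was close to those of stroke blood, where erythroid markers summed to 14102 to 20465 CPM. A link of the ratio with erythroid counts was not tested.

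Of 13 KLF family genes tested, 2 rose and 1 fell in the brain against stroke blood. *Klf9*, a glucocorticoid-responsive factor, reached 12.9 to 33.4 CPM against 4.60 to 7.60 CPM (log2 fold change 1.68, SE 0.41, adjusted p = 0.013, and 1.09 without brain replicate 1), and *Klf13* 474 to 625 CPM against 181 to 341 CPM (1.24, SE 0.23, adjusted p = 0.00369). The call of *Klf9* was lost without stroke blood replicate 2 (adjusted p = 0.0587). *Klf13* measured 430, 563 and 409 CPM in sham blood and was not called between brain and sham blood (log2 fold change 0.27, adjusted p = 0.316). *Klf6*, at 363 CPM in the brain and 334 CPM in stroke blood, and *Klf10*, at 156 and 229 CPM, did not pass.

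Genes cited as targets of KLF2 and KLF4 were read next. Among the 3 KLF2 targets reported here, *S1pr1*, a sphingosine-1-phosphate receptor of egress, rose (21.3 to 24.1 CPM in the brain, 3.65 to 7.08 CPM in stroke blood, log2 fold change 2.14, SE 0.29, adjusted p = 0.000744). Sham blood held 8.95, 18.9 and 13.2 CPM of *S1pr1*, and the gene was not called between brain and sham blood (log2 fold change 0.70, adjusted p = 0.117). *Thbd*, encoding thrombomodulin, averaged 55.5 and 63.1 CPM (adjusted p = 0.643). *Nos3* averaged 0.269 CPM in the brain and 0.661 CPM in stroke blood (adjusted p = 0.143). Of 4 KLF4 targets, 3 rose, namely *Arg1*, the co-receptor gene *Cd14* (1191 to 2417 CPM against 86.9 to 140 CPM, log2 fold change 3.97) and the mannose receptor gene *Mrc1* (29.6 to 85.7 CPM against 6.32 to 11.8 CPM, log2 fold change 2.81). *Mrc1* is also a marker of border macrophages, of which 3 of 4 tested were called higher in the brain, with a summed level of 73.6 to 207 CPM against 39.8 to 102 CPM in stroke blood.

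*Spi1* (ENSMUSG00000002111, chr2:91082390-91115756, plus strand, 7 exon blocks) was the most even of the 9 genes. It measured 693, 784 and 815 CPM in sham blood, 754, 829 and 1016 CPM in stroke blood and 677, 835 and 791 CPM in the brain. All 3 groups overlapped, and only stroke blood replicate 3 exceeded 835 CPM. The log2 fold change was -0.14 against stroke blood (95% interval -0.50 to 0.22, adjusted p = 0.551) and 0.00 against sham blood (95% interval -0.32 to 0.33, adjusted p = 0.988), and both intervals lie within the fold threshold. The sign of both values turned with the scaling.

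Among the other SPI genes, *Spib*, a factor of B cells and plasmacytoid dendritic cells, was called higher in the brain than in stroke blood (6.13 to 12.5 CPM against 2.61 to 4.69 CPM, log2 fold change 1.46, SE 0.38, adjusted p = 0.0178), and *Spic*, a factor of iron-handling macrophages, was not (adjusted p = 0.465). In sham blood *Spib* measured 10.1, 15.9 and 13.7 CPM, and it was not called between brain and sham blood (log2 fold change -0.36, adjusted p = 0.476). The call of *Spib* was lost without stroke blood replicate 2 or 3 or brain replicate 2 or 3 (adjusted p 0.0527 to 0.0645). None of the 9 PU.1 targets tested was called higher and 1 was called lower. That gene was *Cybb*, which encodes a subunit of the phagocyte NADPH oxidase, with 1326 to 1605 CPM in the brain against 3473 to 3869 CPM in stroke blood (log2 fold change -1.31, SE 0.15, adjusted p = 0.00035). Against sham blood *Cybb* was not called, at -0.98 (adjusted p = 0.00495), short of the fold threshold. *Csf1r*, the receptor gene most closely tied to PU.1, averaged 3118 CPM in the brain, 2654 CPM in stroke blood and 2595 CPM in sham blood (log2 fold change 0.26 against stroke blood, adjusted p = 0.367).

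*Runx1* (ENSMUSG00000022952, chr16:92601466-92826149, minus strand, 9 exon blocks) measured 69.7, 58.1 and 52.4 CPM in sham blood, 56.8, 57.3 and 82.0 CPM in stroke blood and 128, 85.7 and 86.4 CPM in the brain. The brain libraries lay above all blood libraries, narrowly so for stroke blood replicate 3. It had a log2 fold change of 0.66 (SE 0.22, adjusted p = 0.0505) against stroke blood, just short of the test, and 0.74 (SE 0.21, adjusted p = 0.0431) against sham blood, below the fold threshold, and the latter adjusted p rose to between 0.0503 and 0.142 with any library left out. An antisense gene shares 106 of its 12025 exonic bases. Of the 4 RUNX family genes tested, *Runx3* was called higher in the brain, at 89.9 to 134 CPM against 32.7 to 57.5 CPM (log2 fold change 1.29, SE 0.24, adjusted p = 0.00385). *Cbfb*, the shared partner of RUNX proteins, averaged 86.1 CPM in the brain and 86.3 CPM in stroke blood (adjusted p = 0.899). Of 4 genes tested among the RUNX1 targets, only *Mpo* was called.

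*Maf* (ENSMUSG00000055435, chr8:115682942-115707794, minus strand, 3 exon blocks), which encodes c-MAF, was the lowest of the 9 genes per length. It measured 24.0, 13.7 and 8.91 CPM in sham blood, 19.5, 13.6 and 37.9 CPM in stroke blood and 30.8, 33.2 and 48.8 CPM in the brain. The brain libraries lay above all sham libraries, but stroke blood replicate 3 lay among them. The log2 fold change was 0.71 (SE 0.35, 95% interval -0.07 to 1.50, adjusted p = 0.153) against stroke blood and 1.17 (adjusted p = 0.0266) without stroke blood replicate 3. Against sham blood *Maf* was called, at 1.27 (SE 0.36, adjusted p = 0.0459), and this call held in 1 of 6 fits with a library left out (without sham blood replicate 1), the adjusted p ranging from 0.0135 to 0.141. It was also lost with upper-quartile scaling and with all 9 libraries in a single fit (adjusted p = 0.0574 and 0.0546). Its 440-base overlap with the antisense *Gm15655*, which had no count in any library, leaves those reads uncertain.

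Of the 4 MAF family genes in the list that were tested, 2 were called higher in the brain than in stroke blood and none lower. These were the small MAF genes *Mafk* (80.5 to 146 CPM against 37.4 to 53.8 CPM) and *Maff* (2.35 to 6.28 CPM against 0.711 to 1.17 CPM), whose products lack a transactivation domain and pair with other bZIP proteins. The call of *Mafk* was lost without brain replicate 1 (log2 fold change 0.93 in place of 1.27) and that of *Maff* without stroke blood replicate 2 or 3 (adjusted p = 0.0525 and 0.0551). Against sham blood *Maff* was called higher in the brain, and *Mafk*, at 0.88 (adjusted p = 0.0419), was below the fold threshold. All 5 genes cited as targets of MAF factors were called higher in the brain than in stroke blood. *C1qa*, *C1qb* and *C1qc*, which encode complement C1q and are also abundant in microglia, measured 213 to 463, 867 to 2257 and 546 to 1593 CPM in the brain and at most 1.68, 31.7 and 6.40 CPM in stroke blood, and the scavenger receptor gene *Cd163* 6.43 to 20.0 CPM against 2.04 to 4.03 CPM. *Il10* averaged 1.84 CPM in the brain and 0.0170 CPM in stroke blood.

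*Mef2a* (ENSMUSG00000030557, chr7:67231163-67372858, minus strand, 13 exon blocks) and *Mef2c* (ENSMUSG00000005583, chr13:83504034-83667080, plus strand, 21 exon blocks) followed different patterns over the 3 groups. *Mef2a* measured 122, 131 and 130 CPM in sham blood, 94.3, 177 and 108 CPM in stroke blood and 241, 251 and 204 CPM in the brain. All brain libraries exceeded all blood libraries, and the blood groups overlapped. Its log2 fold change was 0.90 (SE 0.25, adjusted p = 0.0215) against stroke blood and 0.86 (SE 0.14, adjusted p = 0.00584) against sham blood, both below the fold threshold. Against sham blood the adjusted p stayed below 0.05 in 6 of 6 fits with a library left out, and against stroke blood in 3 of 6. Without stroke blood replicate 2, the highest blood library, *Mef2a* was called against stroke blood, at 1.20. Its overlap with *Lysmd4* on the opposite strand spans 302 of 14681 exonic bases, and *Lysmd4* measured at most 6.25 CPM in any library.

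*Mef2c*, by contrast, measured 51.2, 68.3 and 55.5 CPM in sham blood, 102, 110 and 129 CPM in stroke blood and 95.2, 112 and 113 CPM in the brain. Stroke blood and brain overlapped, and every library of either lay above every sham library. Against stroke blood the log2 fold change in the brain was -0.06 (95% interval -0.41 to 0.29, adjusted p = 0.807). Against sham blood it was 0.87 (SE 0.16, adjusted p = 0.0102) in the brain, with an adjusted p below 0.05 in 6 of 6 fits with a library left out. The TPM ratio of *Mef2a* to *Mef2c* was 2.56, 2.06 and 2.51 in sham blood, 0.992, 1.72 and 0.894 in stroke blood and 2.71, 2.40 and 1.93 in the brain, so stroke blood lay below both other groups.

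Of the 3 MEF2 family genes tested, *Mef2d* alone was called, with 61.3 to 126 CPM in the brain against 26.6 to 37.3 CPM in stroke blood (log2 fold change 1.44, SE 0.29, adjusted p = 0.00592). In sham blood *Mef2d* measured 27.5, 59.3 and 39.8 CPM, and it was not called between brain and sham blood (log2 fold change 0.99, adjusted p = 0.0967). Its exons overlap an antisense gene over 531 bases. *Mapk7*, which encodes ERK5, and *Map2k5*, its kinase, averaged 40.9 and 23.9 CPM in the brain and 43.5 and 25.0 CPM in stroke blood (adjusted p = 0.866 and 0.928). Among the class IIa histone deacetylases, which repress MEF2 proteins, *Hdac4* was called higher in the brain (39.0 to 53.5 CPM against 17.8 to 24.8 CPM, log2 fold change 1.13, SE 0.21, adjusted p = 0.00373), with 3536 exonic bases shared with a gene on the opposite strand, and *Hdac5*, *Hdac7* and *Hdac9* were not. Without stroke blood replicate 1 *Hdac4* was not called (log2 fold change 0.97), and without brain replicate 1 *Hdac5* (-1.06) and *Hdac7* (-1.93) were called lower. Of the 4 genes cited as MEF2 targets, *Jun* (log2 fold change 1.94) and *Nr4a1* (2.58) rose, *Klf2* fell and *Klf4* was not called. *Nr4a1* measured 3105, 690 and 864 CPM in brain replicates 1 to 3 and 211 to 319 CPM in stroke blood, and without brain replicate 1, its highest library, the log2 fold change was 1.57. *Jun* and *Nr4a1* are also in the list of immediate early genes. Of these 15 genes, 12 were called higher in the brain than in stroke blood and 8 than in sham blood. *Jun* was not called against sham blood (log2 fold change 1.91, adjusted p = 0.0587).

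**Figure D3:**
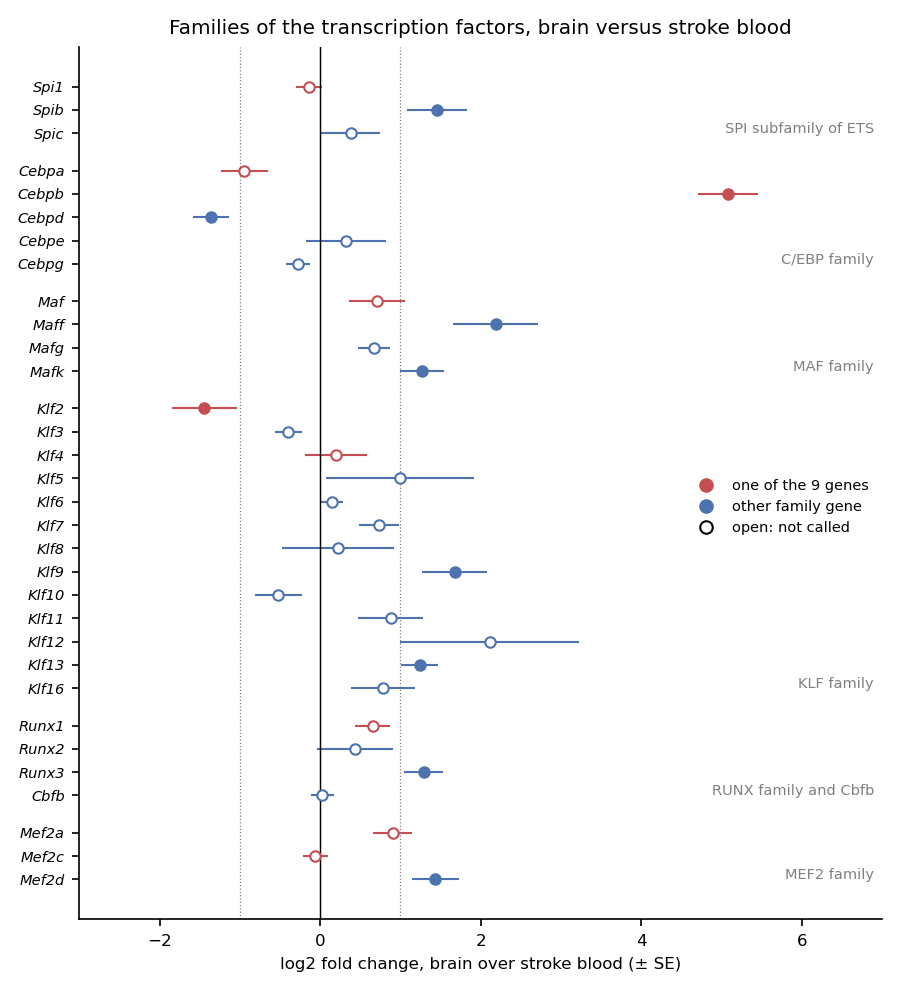
Log2 fold change (brain over stroke blood) ± SE of the listed and tested genes of the 6 families, with the 9 genes in red, other family genes in blue, filled points where called and dotted lines at the fold threshold. *Cebpb*, at 5.08, stands beyond all other family genes, and *Klf2* and *Cebpd* are the called genes on the left.

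Between stroke blood and sham blood, the contrast of circulating cells with and without stroke, none of the 9 genes was called in edgeR's test, against 0.00790% of the 12664 genes tested (1 gene), and none was called by DESeq2, which called 1.06% of its genes. At an unadjusted p below 0.05 there were 2 of the 9, *Klf4* and *Mef2c*, against 12.5% of all genes, and the groups did not overlap for the same 2 genes, against 18.1% of all genes. *Mef2c* was 1.90-fold higher in stroke blood (log2 fold change 0.93, SE 0.17, 95% interval 0.53 to 1.32, unadjusted p = 0.000464, edgeR), with an adjusted p of 0.285 that ranged from 0.109 to 0.707 with a library left out. DESeq2 gave *Mef2c* an adjusted p of 0.00244 at a log2 fold change of 0.92, below the fold threshold. *Klf4* differed by a log2 fold change of 0.81 (SE 0.29, 95% interval 0.14 to 1.47, adjusted p = 0.339).

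For the other genes the intervals of this contrast were wide where the libraries scattered. *Klf2* gave -0.54 (95% interval -1.47 to 0.39), *Maf* 0.56 (-0.41 to 1.54), *Cebpb* 0.44 (-0.35 to 1.23) and *Cebpa* -0.43 (-1.04 to 0.17), and each of these intervals includes changes beyond the fold threshold. *Spi1* (0.15, 95% interval -0.22 to 0.52), *Runx1* (0.09, -0.36 to 0.54) and *Mef2a* (-0.04, -0.58 to 0.50) were bounded within it. None of the family, cofactor or target lists had a called gene in this contrast.

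Against sham blood, 4 of the 9 genes were called in the brain, *Cebpb* and *Maf* higher and *Cebpa* and *Klf2* lower, against 13.4% of the 13020 genes tested, of which 9.75% were called higher and 3.67% lower. At the adjusted p alone 7 of the 9 passed, against 19.8% of all genes, *Spi1* and *Klf4* being the genes that did not. The groups did not overlap for 6 of the 9, against 41.2%. Without sham blood replicate 2 or 3, or without brain replicate 2 or 3, *Cebpb* alone was called. This contrast shares its brain libraries with the contrast against stroke blood and its sham libraries with the contrast within blood, so the 3 contrasts are not independent.

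**Figure D4:**
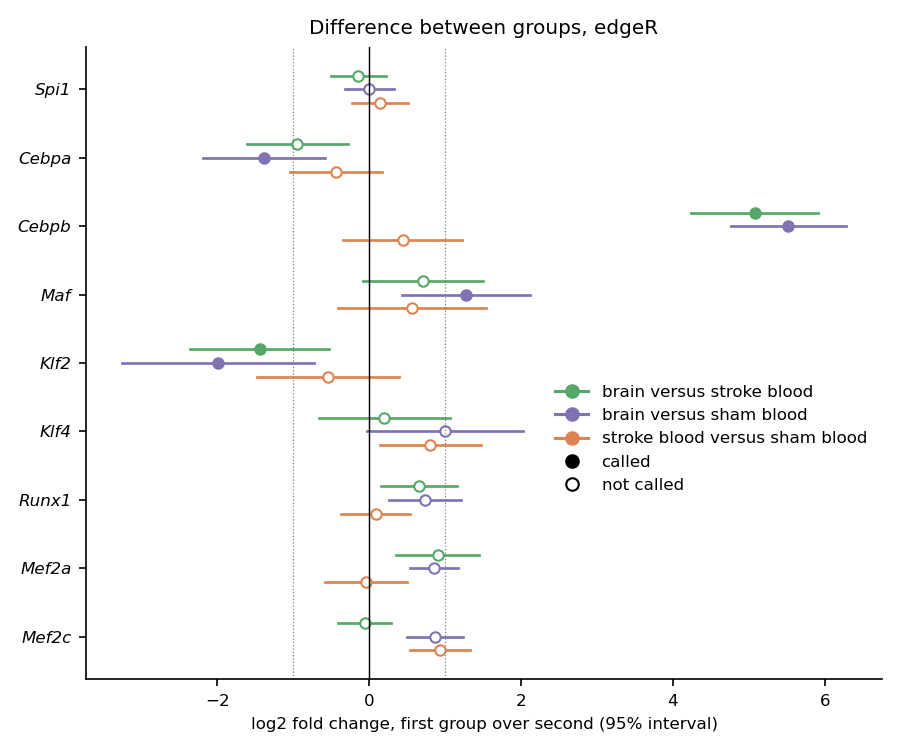
Log2 fold change of the 9 genes in the 3 contrasts (edgeR), with the 95% interval as a line, filled points for called genes, open points for the rest and dotted lines at the fold threshold. *Cebpb* stands at 5.08 and 5.52 in the brain contrasts, and the intervals of *Spi1* lie within the dotted lines in all 3.

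Per length, the order of the genes differed between tissues. TPM had no TMM scaling, so these levels are read within a group and not between groups. In stroke blood *Spi1* came first (633 TPM ± 80.9, SD, n = 3), followed by *Klf2* (253 ± 64.1), *Cebpb* (47.9 ± 17.2), *Klf4* (39.4 ± 6.33), *Cebpa* (22.1 ± 2.85), *Mef2a* (17.5 ± 8.19), *Mef2c* (14.3 ± 1.60), *Runx1* (10.6 ± 1.54) and *Maf* (5.49 ± 2.41). The ranges of *Cebpb* and *Klf4*, of *Cebpa* and *Mef2a* and of *Mef2a* and *Mef2c* overlapped, and those of the other neighbours did not. In sham blood *Spi1* (638 ± 54.1 TPM), *Klf2* (420 ± 232) and *Cebpb* (40.3 ± 12.6) also led, *Klf2* and *Spi1* being close in replicate 2.

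In the brain *Cebpb* led, at 2339 TPM ± 546, ahead of *Spi1* (814 ± 67.2), *Klf2* (135 ± 86.7), *Klf4* (65.4 ± 42.7), *Mef2a* (45.3 ± 5.50), *Runx1* (23.9 ± 6.62), *Mef2c* (19.4 ± 1.27), *Cebpa* (16.4 ± 6.65) and *Maf* (13.0 ± 3.08). *Cebpb*, *Spi1* and *Klf2* were separated from each other in every library, as was *Mef2a* from *Runx1*, whereas all other neighbours overlapped in range.

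For the genes called between brain and stroke blood, the profiles most like theirs over the 9 libraries were sought among 7927 genes by the root mean square difference of centred log2 CPM. For *Cebpb* these were *Itgb5*, an integrin subunit gene (0.45), *Cxcl16*, a chemokine gene (0.58), and *Tgm2*, a transglutaminase gene (0.60). For *Klf2* they were *Vapb* (0.35), *Cebpa* (0.40) and *Sympk* (0.45), so that *Cebpa*, a gene of the same list, was the second most alike.

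Among 27 further transcription factor genes of myeloid and other blood cells tested, 9 were called higher and 1 lower in the brain than in stroke blood. *Egr1* measured 325 to 668 CPM in the brain against 16.6 to 20.8 CPM (log2 fold change 4.79, SE 0.28), *Egr2* 24.6 to 47.9 CPM against 0.120 to 1.63 CPM (5.20, SE 0.60) and *Bhlhe41*, a factor of resident macrophages, 8.76 to 43.5 CPM against 0.306 to 0.359 CPM (5.94, SE 0.77, and 4.75 without brain replicate 3). *Sall1* measured 6.23 to 20.6 CPM in the brain. *Irf4*, a factor of monocyte-derived dendritic cells, was the gene that fell, averaging 10.6 CPM in the brain and 29.6 CPM in stroke blood (log2 fold change -1.45, SE 0.26, adjusted p = 0.00304), while *Irf8*, the partner of PU.1 in monocytes, averaged 450 and 434 CPM (adjusted p = 0.751). Of 13 cofactor and regulator genes, 3 rose (*Hdac4*, *Jun* and *Trib1*) and none fell. *Trib1*, whose product directs C/EBPα to degradation, measured 89.0 to 166 CPM in the brain against 32.8 to 50.4 CPM in stroke blood (log2 fold change 1.58, SE 0.26, adjusted p = 0.00213). Against sham blood, *Egr1* (log2 fold change 2.92, adjusted p = 0.107), *Irf4* (-0.70, 0.232) and *Trib1* (1.38, 0.0879) were not called. None of the 13 cofactor and regulator genes was called higher than in sham blood and 1 was called lower. *Egr1*, also in the list of immediate early genes, measured 183, 11.5 and 7.52 CPM in sham blood replicates 1 to 3.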

How the data were processed

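According to the study's methods, cDNA was made from total RNA of sorted cells with a SMART-Seq HT kit, tagmented with Nextera XT and sequenced as paired-end reads. The authors mapped reads to GRCm38 with HISAT2 and counted them with HTSeq (versions, annotation release and strand setting not given in the sources used here). The deposited values are raw counts per Ensembl gene for 9 libraries, without normalization, and were used as deposited. Reads carry no molecular identifiers. Groups and replicate numbers came from the sample titles. Libraries of a group are separate mice or pools, and the spread of their counts exceeded sampling noise (23.9 to 136 as chi-square over its degrees of freedom).

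Symbols, positions and exon lengths came from GENCODE M21, which held 53706 of the 53801 identifiers. Each contrast was fitted on its 6 libraries with edgeR 4.0.16 in R 4.3.3 (TMM, default filter, quasi-likelihood test, Benjamini-Hochberg adjustment over all genes tested), while the authors used DESeq2. The SE is the log2 fold change over the square root of F. CPM used TMM factors over all libraries. TPM used exon lengths of all annotated transcripts together, without TMM. Promoter windows were those of RefSeq (GRCm38.p6). Of the other named list genes, *Cebpg*, *Mafk*, *Csf1r*, *Il1b*, *Mpo*, *Prtn3*, *Nos3*, *Jun*, *Bhlhe41*, *Mapk7* and *Hdac7* share exonic bases with an opposite-strand gene. *Itgam* (3450 of 5024 bases), *Cebpg* and *Hdac5* share them with a same-strand gene, and all these genes are uncertain to that extent. The fit was tested on simulated counts. Tables and figures used Python 3.11.15, pandas 2.3.3 and matplotlib 3.10.9.

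The 9 genes and all lists were chosen with earlier results of these data known. The text names all 9 genes, other genes of their families, and from each list up to 4 called genes with the largest change at a mean log2 CPM above 1, and for each of the 9 genes called between brain and stroke blood the 3 genes with the most similar profile (mean log2 CPM above 3). List genes named as not called, and *Itgax*, *Irf4*, *Il10* and *Tmem189*, were chosen after their values were seen. *Ddit3* was left out of the C/EBP list because 2 identifiers carry this symbol. Another 2 listed genes are not reported here and were taken out of their lists, though they stayed in the fits. Alternatives were DESeq2 1.42.0, other scalings, no filter, a joint fit of the 9 libraries, a replicate block, no fold threshold and each library left out.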

Additional observations from a re-analysis of the deposited data

How the results depend on the processing

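Between brain and stroke blood, 2 of the 9 genes were called, with a range of 1 to 3 when a library was left out and 4 with no fold threshold. Against sham blood the 4 calls in the brain ranged from 1 to 4 with a library left out and became 7 with no fold threshold. In the contrast within blood 0 genes were called under every alternative. *Cebpb* was called in the brain contrasts under every alternative run. Library size only shifted the median of all genes by 0.15 (log2) between brain and stroke blood and by 0.12 between brain and sham blood, and upper-quartile scaling shifted the former by -0.15. Under these scalings *Mef2a* (1.06, library size only) and *Cebpa* (-1.10, upper-quartile) passed the fold threshold between brain and stroke blood, and *Klf2* lost its call against sham blood with library size only (adjusted p = 0.0532). Signs turned only for fold changes of at most 0.20 in size. Between brain and stroke blood, library size only gave 0.018 for *Spi1* and 0.10 for *Mef2c*, and leaving out a library gave -0.44 to 0.48 for *Klf4* and -0.17 to 0.019 for *Mef2c*. In the contrast within blood, upper-quartile scaling gave 0.023 for *Mef2a*, and leaving out a library gave -0.42 to 0.12 for *Mef2a* and -0.10 to 0.21 for *Runx1*. Between brain and sham blood, *Spi1* gave -0.0029 with RLE, -0.066 with upper-quartile scaling, -0.0096 with no filter and -0.063 to 0.083 with a library left out. Apart from leave-one-out fits, 59 of 63, 62 of 63 and 54 of 63 fold changes of single genes kept direction and call in the contrasts of brain with stroke blood, stroke with sham blood and brain with sham blood.

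No source used here says that equal replicate numbers mark shared animals, and deviations of same-numbered libraries correlated at -0.0739 to 0.0738. With the replicate number as a block, 2 genes were called between brain and stroke blood and 1 between brain and sham blood, where *Cebpa* (log2 fold change -1.40, adjusted p = 0.0757), *Maf* (1.35, 0.0782) and *Klf2* (-2.04, 0.105) were lost at fold changes close to those without the block. Depth was no limit at counts of 161 and above, whereas 3 libraries a group were, and exact permutation of 3 against 3 libraries cannot reach p below 0.1.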
